A study of Homo sapiens with 120 samples.

Results

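Iron handling genes carry iron in the blood, bring it into cells, store it, release it and set how much of it circulates. The set described here has 10 members, named by symbol: the plasma carrier TF, the receptors TFRC and TFR2, the importer SLC11A2, the storage subunits FTH1 and FTL, the exporter SLC40A1, the hormone HAMP and the regulators ACO1 and IREB2. Of these 10, the 8 with a probe annotated to their symbol were measured among 20046 genes, and FTH1 and IREB2 were not analysed here. A gene was read from the brightest of its probes, as the log2 of the deposited intensity. FTL and SLC40A1 have 2 probes each and the other 6 have 1.

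The cells were HepG2, a line from a human hepatocellular carcinoma, used at passages 10 to 20 and therefore a model of transformed liver cells in culture rather than of liver tissue. Flasks were plated 48 h before exposure and then held for 72 h with powders of nanoparticles in culture medium at 0.3, 3 or 30 µg/mL, and Illumina HT-12 v4 bead arrays were used to read their total RNA. The labels code 8 materials. TiO2 is given for A (vendor Degussa), H (vendor Mknano) and I (vendor Acros), and CeO2 for B and M (vendor Nano Amor) and for C, D and L (vendor Alfa Aesar). The controls were 8 flasks that received no treatment, the 8 groups at 0.3 µg/mL had 4 arrays each, and the 16 groups at 3 and 30 µg/mL had 5 each except M at 3 µg/mL with 4. The series title counts fewer materials than the codes do, and each code was kept as a material of its own. Replicates are separate flasks of a single cell line, so the tests measure the spread between flasks, and the number of arrays limits the precision.

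In the liver, iron bound to transferrin enters cells through transferrin receptors, leaves endosomes through the metal transporter encoded by SLC11A2, and is stored in ferritin. Ferroportin, the product of SLC40A1, is the known exporter of iron from cells, and hepcidin, the product of HAMP, is the hepatocyte hormone that binds ferroportin and has it degraded. Cells low in iron let the regulatory proteins encoded by ACO1 and IREB2 bind hairpins in messenger RNAs, which stabilises the TFRC transcript and blocks translation of ferritin, so ferritin protein can change with no change in its RNA.

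Against the controls, TFR2 rose in 9 of the 24 material and dose groups, SLC11A2 rose in 4 and fell in 2, SLC40A1 rose in 2 and HAMP rose in 1. FTL, TFRC, TF and ACO1 passed the test in none. The largest rise was that of TFR2 with I at 0.3 µg/mL, by 0.62 ± 0.10 (log2, SE), which is 1.54-fold. By dose, 3 of 64 member tests passed at 0.3 µg/mL, all higher, which is 4.69% against 2.25% of all gene tests at that dose (1.58% higher and 0.667% lower). At 3 µg/mL 6 were higher and 1 lower, which is 10.9% of 64 against 2.31% of all gene tests (1.52% higher and 0.797% lower). At 30 µg/mL 7 were higher and 1 lower, which is 12.5% of 64 against 5.87% of all gene tests (3.88% higher and 2% lower). A gene passed where limma's adjusted p was under 0.05, changes are log2 changes ± SE throughout, and every comparison with control uses the same 8 control arrays.

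The calls of members fell in groups that differed widely in how many genes passed at all. At 0.3 µg/mL I held 1 member call (5.57% of its 20046 genes passed) and L held 2 (12.2%). At 3 µg/mL A held 2 (4.39%), I 2 (7.72%), H 1 (1.37%), L 1 (4.06%) and M 1 (0.958%). At 30 µg/mL A held 2 (8.51%), I 2 (3.92%), H 1 (9.46%), L 1 (6.9%), M 1 (17.4%) and B 1 (0.743%). So M at 30 µg/mL, with the largest share of genes called, had 1 of 8 members called. The other 11 groups held no member call with all arrays, and in each of them only 0% to 0.175% of genes passed. With so few genes called, a lack of member calls there says nothing particular about the members.

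Some arrays stood apart from the others of their group over all genes. On the first principal component of all genes, which held 38.1% of the variance, the widest gap separated 9 arrays from the other 110. They were A at 30 µg/mL replicate 3, H at 30 µg/mL replicates 1 and 2, L at 30 µg/mL replicate 1, M at 30 µg/mL replicates 3 and 4, I at 0.3 µg/mL replicate 3, I at 3 µg/mL replicate 4 and L at 0.3 µg/mL replicate 3, with no control and no array of B, C or D. In the sample order of the series, which otherwise mixes the groups, these 9 follow one another without a gap. The labels used here name no batch, and whether the 9 share a step of handling was not tested. Without these 9 arrays the member calls were 7 higher and 2 lower at 0.3 µg/mL (background 2.95%), 11 higher and 1 lower at 3 µg/mL (background 4.94%), and 10 higher and 1 lower at 30 µg/mL (background 5.59%). Of the calls made with all arrays, all 3, all 7 and 7 of 8 were among them. Separately, control 8 was the highest control for TFR2, at 7.42 against 6.81 to 7.08 in the other 7, and for SLC11A2, at 9.75 against 9.12 to 9.40. All 9 measured hepatocyte markers, among them ALB and APOA1, lay at the 97.8th percentile of probes or above, while the 5 fibroblast markers lay between the 18.7th and the 77.3rd and the 5 endothelial markers between the 5.85th and the 42.9th. The 5 leukocyte markers lay between the 23.4th and the 98.5th percentile. LYZ was the highest, followed by CD68 at the 89.6th and CD14 at the 78.6th. In whole-culture RNA, fewer cells expressing a gene and less of its RNA per cell cannot be told apart.

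**Figure D1:**
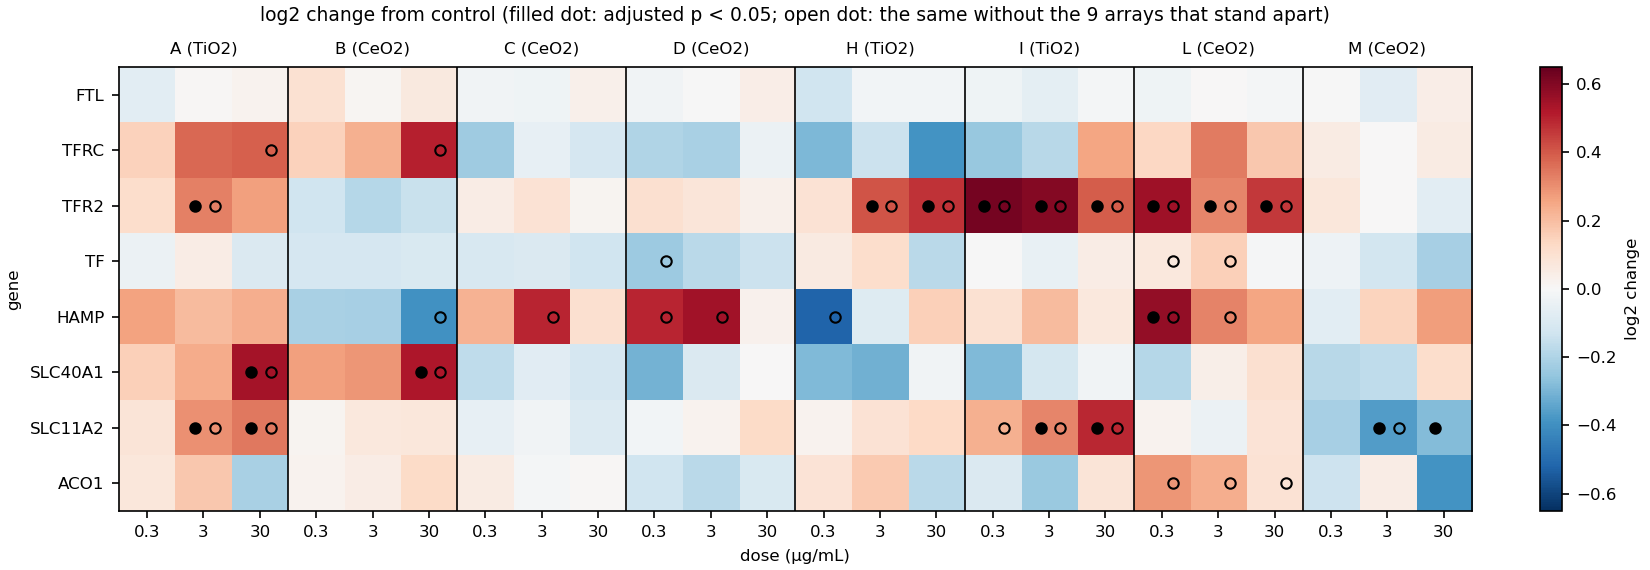
Log2 change from control (colour) for the 8 measured members (rows) at 3 doses in µg/mL of each of 8 materials (columns). Filled dots mark adjusted p under 0.05 with all arrays and open dots the same without the 9 arrays that stood apart. TFR2 carries filled dots in 9 groups of A, H, I and L, and FTL carries none.

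TFR2 encodes transferrin receptor 2, which in hepatocytes binds iron-loaded transferrin and takes part in the control of HAMP. Of the 8 measured members TFR2 was the dimmest, with a mean of 7.15 at the 78.0th percentile of probes. The median of all probes was 6.61, and detection of TFR2 above background was not tested. In the controls its log2 level had a lowest value of 6.81, a median of 6.91 and a highest of 7.42. With I at 0.3 µg/mL the 4 arrays read 7.61, 7.54, 7.86 and 7.39, and with I at 3 µg/mL the 5 arrays read 7.36, 7.43, 7.41, 7.95 and 7.70. Each of these 9 arrays exceeded controls 1 to 7, and some of them lay below control 8, the only control that the groups overlapped. TFR2 rose by 0.62 ± 0.10 (adjusted p = 3.91e-05) at 0.3 µg/mL and by 0.60 ± 0.10 (adjusted p = 1.92e-05) at 3 µg/mL. At 30 µg/mL I read 7.61, 7.36, 7.35, 7.37 and 7.15, again all above controls 1 to 7, for a rise of 0.40 ± 0.10 (adjusted p = 0.00709). Without replicate 1 of I at 30 µg/mL this adjusted p was 0.0587.

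With L, TFR2 rose at every dose. The arrays at 0.3 µg/mL read 7.41, 7.36, 8.09 and 7.24, a rise of 0.55 ± 0.10 (adjusted p = 4.97e-05). At 3 µg/mL they read 7.43, 7.27, 7.47, 7.45 and 6.85, a rise of 0.32 ± 0.10 (adjusted p = 0.0405), and replicate 5 was the array that fell among controls 1 to 7. At 30 µg/mL they read 7.94, 7.36, 7.48, 7.37 and 7.01, a rise of 0.46 ± 0.10 (adjusted p = 0.000851). The highest array at 0.3 and at 30 µg/mL was in each case among the 9 that stood apart. Without those 9 arrays the rises were 0.36 at 0.3 µg/mL and 0.33 at 30 µg/mL, with adjusted p of 0.00126 and 0.00404. With only replicate 1 at 30 µg/mL left out, the adjusted p there was 0.0512.

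With H, TFR2 rose at 3 and 30 µg/mL. Its arrays read 7.19, 7.30, 7.57, 7.49 and 7.37 at 3 µg/mL, which gave a rise of 0.41 ± 0.10 (adjusted p = 0.0142). They read 7.53, 7.60, 7.22, 7.49 and 7.40 at 30 µg/mL, which gave a rise of 0.47 ± 0.10 (adjusted p = 0.000499). All 10 arrays lay above controls 1 to 7. Replicates 1 and 2 at 30 µg/mL are among the 9 that stood apart, and the rise was 0.39 (adjusted p = 0.0039) without the 9. At 0.3 µg/mL the H arrays read 7.16, 7.06, 7.12 and 6.93, within the span of the controls.

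With A, TFR2 passed at 3 µg/mL only. The 5 arrays read 7.22, 7.48, 7.26, 7.38 and 7.16, all above controls 1 to 7, for a rise of 0.33 ± 0.10 (adjusted p = 0.0322). At 30 µg/mL A read 7.19, 7.21, 7.59, 7.13 and 7.08, a difference of 0.27 (adjusted p = 0.076) that did not pass. The CeO2 materials B, C, D and M gave no call for TFR2 at any dose, and all 14 arrays of B lay below the control mean of 6.97. Few genes of any kind passed with B, C and D, at most 0.743% at any dose, against 17.4% with M at 30 µg/mL. Whether the response of TFR2 differed between doses of A was tested only between 30 and 0.3 µg/mL, where no member passed for A.

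Among the TFR2 calls at 3 µg/mL, only that of I kept its call whenever 1 array of a group was left out. That of A was lost without any of controls 3 to 7 or without replicate 1, 2 or 4 of the treated groups, with adjusted p up to 0.182. That of L was lost without any of controls 2 to 7 or replicates 1 to 4, with adjusted p up to 0.212, and that of H without replicate 2, 3 or 4, with adjusted p up to 0.152. At 0.3 µg/mL the calls of I and L, and at 30 µg/mL that of H, held in all 53 such fits. Most of the 53 left out no array of either group compared. There the change itself could not move, only the shared spread and the adjustment of p. In these fits a replicate number was left out of all groups at 0.3 and 3 µg/mL together, while controls and arrays at 30 µg/mL were left out singly.

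Whether groups of TFR2 lay outside the control range depended on control 8, but no TFR2 call was lost when it was left out. Read against all 8 controls, no group of TFR2 lay wholly outside their range. Read against controls 1 to 7, a choice made after seeing that control 8 lay apart, 7 of 24 groups of TFR2 and 3 of SLC11A2 did. Over all 8 members this made 10 of 192 group comparisons, or 5.21%, against 2.37% over all genes, and with control 8 kept it made 1 of 192, or 0.521%, against 1.31% over all genes. In the fit without control 8, TFR2 was higher in 10 groups, SLC11A2 was higher in 5 and lower in none, and 18 of 192 member tests passed, against 3.83% of all gene tests.

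**Figure D2:**
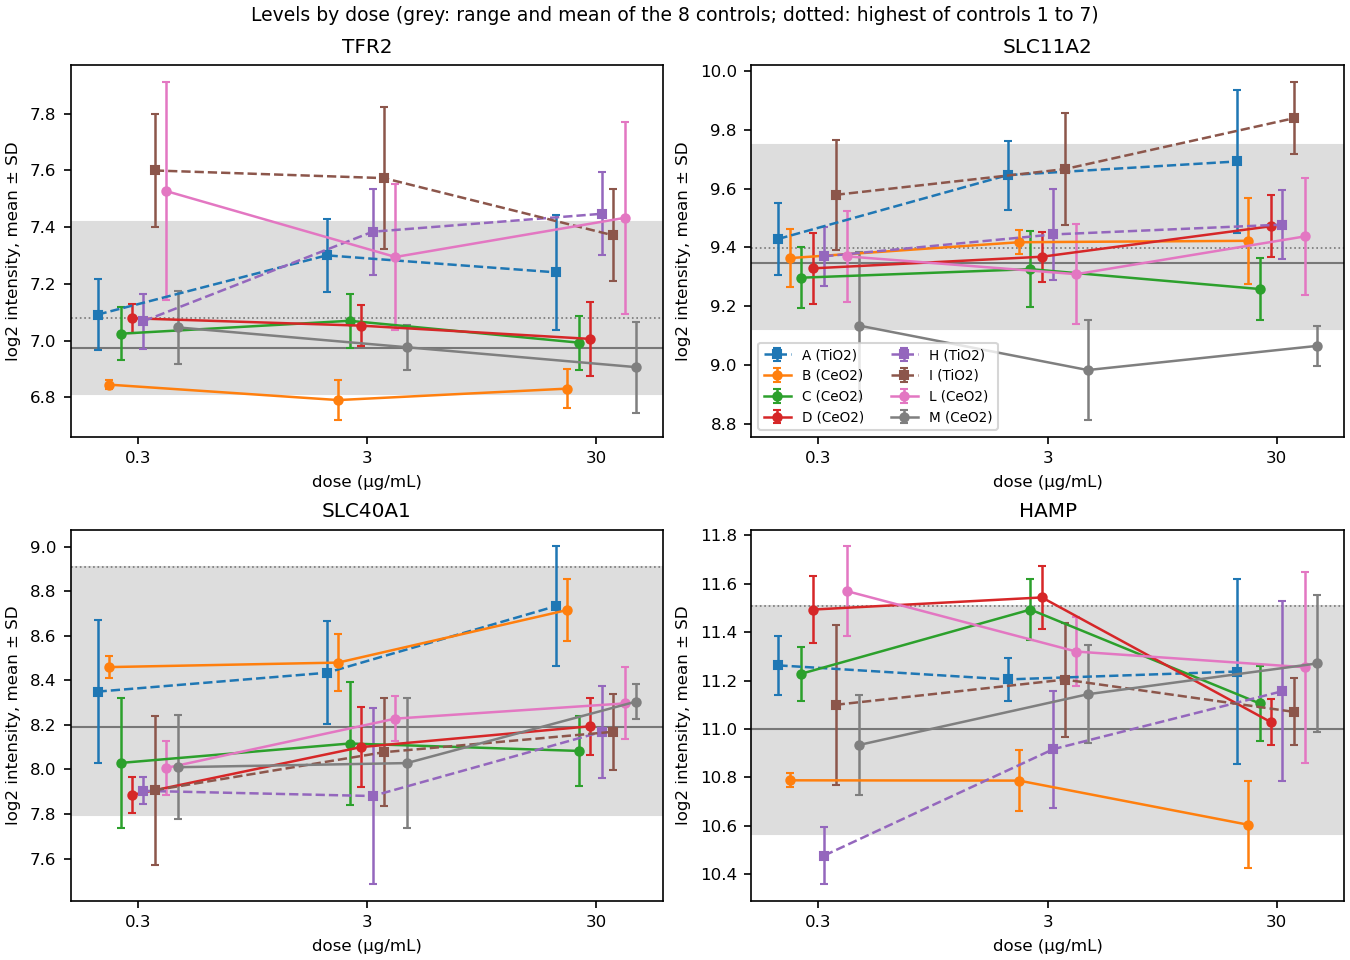
Mean log2 intensity ± SD over 4 or 5 arrays (vertical axis) by dose in µg/mL (horizontal axis, log spacing) for TFR2, SLC11A2, SLC40A1 and HAMP. Dashed lines with squares are TiO2 materials and solid lines with circles CeO2 materials; the grey band and line are the range and mean of the 8 controls, and the dotted line the highest of controls 1 to 7. TFR2 of I and L was already high at 0.3 µg/mL, and SLC11A2 of M lay below the control mean at all 3 doses.

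SLC11A2 encodes DMT1, which moves ferrous iron across membranes, in hepatocytes mainly out of endosomes. Its control arrays had a lowest value of 9.12, a median of 9.36 and a highest of 9.75. With I at 30 µg/mL the arrays read 9.64, 9.87, 9.94, 9.83 and 9.92, and SLC11A2 rose by 0.49 ± 0.09 (1.41-fold, adjusted p = 0.000105). All 5 lay above controls 1 to 7 and 4 of them above control 8. With I at 3 µg/mL they read 9.81, 9.85, 9.58, 9.38 and 9.71, a rise of 0.32 ± 0.09 (adjusted p = 0.0094) in which the lowest array was replicate 4, which stood apart. With I at 0.3 µg/mL the change was 0.23 and did not pass (adjusted p = 0.13), while without the 9 arrays it was 0.31 and passed (adjusted p = 0.0467).

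With A, SLC11A2 rose at 3 and 30 µg/mL. Its arrays read 9.65, 9.58, 9.49, 9.73 and 9.78 at 3 µg/mL, a rise of 0.30 ± 0.09 (adjusted p = 0.0223). They read 9.38, 9.71, 9.96, 9.52 and 9.88 at 30 µg/mL, a rise of 0.34 ± 0.09 (adjusted p = 0.0033). At 3 µg/mL every array exceeded controls 1 to 7, and at 30 µg/mL replicate 1 lay among them. The highest array at 30 µg/mL, replicate 3, stood apart. Without this array alone the adjusted p was 0.0566, and without all 9 the rise was 0.28 (adjusted p = 0.0302). The calls at 3 µg/mL were lost for A without control 2 or 6 or replicate 1, 4 or 5 (adjusted p up to 0.105), and for I without replicate 1 or 2 (adjusted p up to 0.0603).

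With M, SLC11A2 fell. The arrays read 8.95, 9.14, 8.76 and 9.08 at 3 µg/mL, a change of -0.37 ± 0.09 (adjusted p = 0.02), and 9.12, 9.12, 9.09, 9.03 and 8.96 at 30 µg/mL, a change of -0.28 ± 0.09 (adjusted p = 0.0121). The group at 30 µg/mL was the only group of any member with every array outside the range of the 8 controls, though its highest array came next to the lowest control. Both falls depended on control 8, and that at 3 µg/mL also on replicates 1 and 3, since without either it did not pass (adjusted p up to 0.326). Without control 8 they were -0.31 (adjusted p = 0.101) and -0.23 (adjusted p = 0.0531), and neither passed. With the 9 arrays left out, the change at 30 µg/mL was -0.28 with an adjusted p of 0.0594, and that at 3 µg/mL kept its call (adjusted p = 0.00755).

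TFRC encodes transferrin receptor 1, the receptor that most dividing cells use to take up transferrin iron. The controls ran from 10.43 to 11.18 with a median of 10.64. The 2 highest group means belonged to B at 30 µg/mL, whose arrays read 11.15, 11.31, 11.06, 11.41 and 11.26, and to A at 30 µg/mL, whose arrays read 10.93, 11.37, 10.58, 11.28 and 11.44. The differences of 0.51 ± 0.21 and 0.39 ± 0.21 did not pass (adjusted p = 0.285 and 0.303). In both groups some arrays lay within the control range. When the 9 arrays were left out, among them the lowest array of A, both passed, with rises of 0.51 (adjusted p = 0.0159) and 0.52 (adjusted p = 0.00846).

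The SE of these TFRC changes was 0.21 with all arrays and 0.13 to 0.14 with the 9 left out. All 9 read TFRC below the mean of the other arrays of their group, with differences from -1.83 to -0.67 on the log2 scale. H at 30 µg/mL shows it: its arrays read 9.18, 9.54, 11.08, 10.77 and 11.17, and the 2 low ones were those that stood apart. What set these arrays apart was not tested. The TFRC promoter window in RefSeq holds the letters ACGTG, the core of the hypoxia response element through which HIF is known to act on this gene, at position -88 from the start. On either strand those letters occurred in 21.4% of 35116 RefSeq windows of 300 bases, so a match is a description and not a site. The stretch from chr3:196082131-196082210 (GRCh38.p14, minus strand) is shown for context, with the match in capitals.
TFRC: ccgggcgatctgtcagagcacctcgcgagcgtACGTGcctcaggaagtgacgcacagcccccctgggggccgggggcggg

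TF encodes transferrin, the iron carrier that hepatocytes secrete and therefore also a marker of the liver identity of HepG2. Its controls ran from 13.51 to 13.87 with a median of 13.70, and group means spanned only 13.46 (D at 0.3 µg/mL) to 13.85 (L at 3 µg/mL). No group passed, and the smallest adjusted p was 0.0757. The 9 arrays that stood apart all read low, with differences of -0.77 to -0.23 from their group. Without them TF was lower with D at 0.3 µg/mL (-0.24, adjusted p = 0.0189) and higher with L at 0.3 µg/mL by 0.18 (adjusted p = 0.0154) and at 3 µg/mL by 0.15 (adjusted p = 0.0215).

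FTL encodes the light subunit of ferritin, the shell that holds iron in the cell. Its group means ran from 13.93 (H at 0.3 µg/mL) to 14.16 (B at 0.3 µg/mL) around a control median of 14.05, and no group passed (smallest adjusted p = 0.494). The array scale left it little room: after the authors' normalization the highest value of every array was 14.18, and the FTL probe held the highest value of the array on 12 of 119 arrays and had a median rank of 6. A rise of FTL above that value could not be seen. Its second probe had a change of the same sign in 19 of 24 comparisons. In the arrays that stood apart FTL moved least of the members, with 5 of 9 below their group and 4 above, from -0.11 to 0.06. Rises there were limited by the same scale, so this small range cannot be set against those of the other members.

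The FTL transcript carries the iron-responsive element that the ACO1 and IREB2 proteins bind, and the loop of that hairpin, a bulged C followed after 5 bases by CAGTGN, was found at position 33 from the start. The search used the sense strand of the 50 bases after each start, and 1.67% of 35116 windows held it. The stretch at chr19:48965331-48965358 (GRCh38.p14, plus strand, from RefSeq) is shown because it is the known link between iron and ferritin that an RNA level does not read. Capitals mark the match.
FTL: ctgtctcttgCTTCAACAGTGTttggac

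SLC40A1 encodes ferroportin. Its controls ran from 7.80 to 8.91 with a median of 8.08. With A at 30 µg/mL the arrays read 8.30, 8.89, 8.70, 8.77 and 9.01, and SLC40A1 rose by 0.54 ± 0.13 (1.45-fold, adjusted p = 0.00203). With B at 30 µg/mL they read 8.64, 8.57, 8.64, 8.87 and 8.86, and it rose by 0.52 ± 0.13 (1.44-fold, adjusted p = 0.0267). Control 3, at 8.91, exceeded all arrays of B and 4 of 5 of A, so both groups overlapped the controls. Every array of both groups lay above the control mean.

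The other 6 materials gave SLC40A1 means of 8.08 to 8.30 at 30 µg/mL, and the arrays of M, the next in order, did not overlap those of B. Both rises were nearly as large without the 9 arrays, at 0.55 and 0.52. The call for B was lost when any of controls 2, 5 or 7, or replicate 4 or 5 of B, was left out, with adjusted p up to 0.103. The second SLC40A1 probe, a dim one, changed by 0.09 with A and by 0.11 with B at 30 µg/mL and had the same sign as the brighter probe in 15 of 24 comparisons. At 0.3 and 3 µg/mL the means of A and B were 8.35 to 8.48, above the control mean of 8.19, with no call.

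HAMP encodes hepcidin, which hepatocytes make in response to iron, through BMP signalling, and to interleukin 6, through STAT3. Its controls ran from 10.57 to 11.51 with a median of 10.99. With L at 0.3 µg/mL the arrays read 11.41, 11.60, 11.82 and 11.45, and HAMP rose by 0.57 ± 0.13 (1.48-fold, adjusted p = 0.0011). All 4 lay above every control other than control 2. Replicate 3 stood apart, and with the 9 left out the rise was 0.49 (adjusted p = 0.000506).

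HAMP had the widest spread of group means of the 8 members, 1.09 on the log2 scale, yet only this group passed with all arrays. D at 0.3 µg/mL read 11.34, 11.65, 11.57 and 11.41, and D at 3 µg/mL read 11.39, 11.61, 11.70, 11.59 and 11.44. C at 3 µg/mL read 11.43, 11.31, 11.51, 11.59 and 11.63. All 14 of these arrays lay above the control mean, with differences of 0.49, 0.54 and 0.49 and adjusted p of 0.234, 0.149 and 0.668. In these comparisons few genes passed at all, at most 0.02%. At 30 µg/mL the means of C and D were 11.11 and 11.03, close to control.

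On the low side, H at 0.3 µg/mL read 10.53, 10.57, 10.31 and 10.50, a difference of -0.52 (adjusted p = 0.171), and B at 30 µg/mL read 10.69, 10.38, 10.55, 10.86 and 10.55, a difference of -0.40 (adjusted p = 0.107). All 9 of those arrays lay below the control mean. Without the 9 arrays that stood apart, none of which belongs to B, C, D or H at 0.3 µg/mL, HAMP was called higher in 5 groups (D at 0.3 and 3, C at 3, and L at 0.3 and 3 µg/mL) and lower in 2 (H at 0.3 and B at 30 µg/mL). The 9 arrays all read HAMP higher than the rest of their group, by 0.33 to 0.86.

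The HAMP window in RefSeq holds both kinds of element through which the gene is known to be controlled, close together. The letters GGCGCC, the core of the BMP response element, began at position -105 and occurred on either strand in 19.2% of all windows, among them those of TF, TFRC, ACO1 and IREB2. A STAT match, TTCNNNGAA, began at position -93 and occurred in 7.66% of all windows. Among the members with a window, only HAMP held the STAT match, and none held TGACNNNGC, the core of the antioxidant response element, which 13.3% of all windows held. The stretch at chr19:35282398-35282477 (GRCh38.p14, plus strand) is shown with both matches in capitals, since the groups above differ in the level of this gene. The matches are descriptions and were not tested for use in these cells.
HAMP: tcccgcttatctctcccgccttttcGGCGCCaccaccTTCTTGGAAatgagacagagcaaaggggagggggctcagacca

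ACO1 encodes the cytosolic aconitase that becomes iron regulatory protein 1 when it loses its iron-sulfur cluster. The controls ran from 9.36 to 9.86 with a median of 9.65. With L the arrays read 10.10, 10.21, 9.48 and 9.99 at 0.3 µg/mL, 9.99, 9.92, 9.97, 9.84 and 9.74 at 3 µg/mL, and 8.80, 10.03, 9.91, 10.06 and 9.95 at 30 µg/mL. The low array at 0.3 and at 30 µg/mL was in each case one that stood apart, and no comparison passed (adjusted p = 0.299, 0.522 and 0.839). On the 110 other arrays all 3 doses of L passed, with rises of 0.44 (adjusted p = 6.29e-06), 0.24 (adjusted p = 0.00783) and 0.33 (adjusted p = 0.000944). All 9 arrays read ACO1 below their group, with differences from -1.34 to -0.36.

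**Figure D3:**
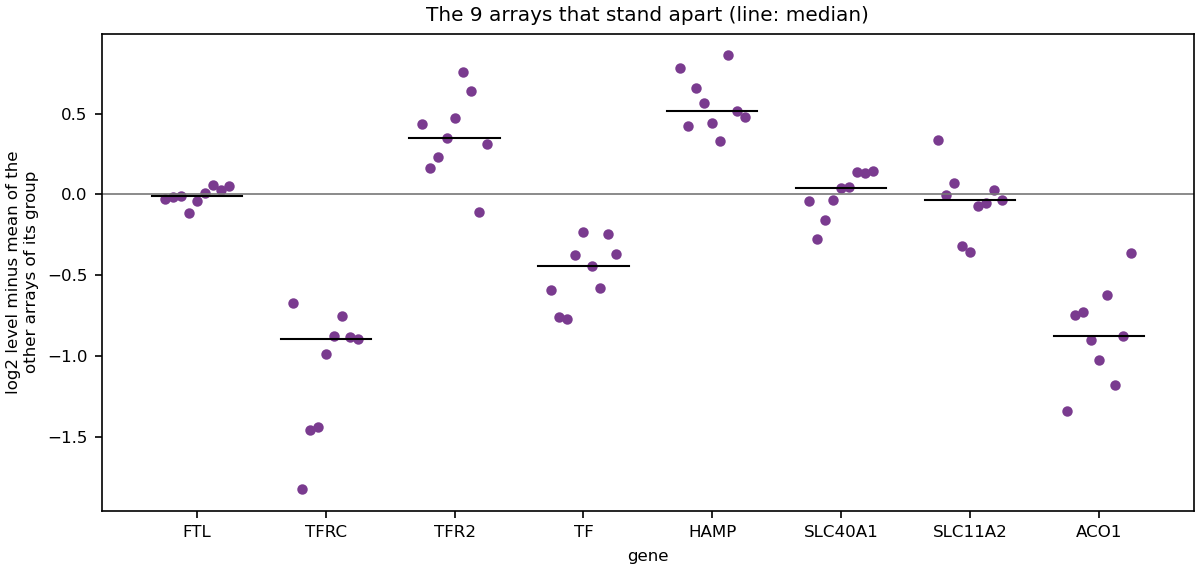
Log2 level of each member in each of the 9 arrays that stood apart, minus the mean of the other arrays of its group (vertical axis), by gene (horizontal axis); the line is the median. TFRC, TF and ACO1 are below 0 in all 9 and HAMP is above 0 in all 9. FTL, near the top of the array scale, lies within 0.12 of 0.

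The arrays that stood apart thus read the members in a common direction for 4 genes, and in 8 of 9 arrays TFR2 was higher, with a median of 0.35. SLC11A2 was lower in 6 and higher in 3, and SLC40A1 lower in 4 and higher in 5. The rises of TFR2 were called in the same number of groups with and without these arrays, 9 of 24. For TFRC, TF, HAMP and ACO1 the number of calls went from 0, 0, 1 and 0 to 2, 3, 7 and 3 when they were left out.

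Within materials, 30 µg/mL was compared with 0.3 µg/mL, a comparison that uses no control array. Of 64 member tests 2 passed, both higher and both in H, against 1.96% of all gene tests and 8% in H. HAMP in H went from the 4 arrays given above, at most 10.57, to 11.36, 11.60, 10.73, 10.81 and 11.28, a rise of 0.68 ± 0.15 (1.60-fold, adjusted p = 0.000902). TFR2 in H went from at most 7.16 to at least 7.22, a rise of 0.38 ± 0.11 (adjusted p = 0.0246). The groups did not overlap for either gene, a description for which the share over all genes is not given here. Only 1 of the 2 calls was made without replicate 1 or 2 of H at 30 µg/mL, or without replicate 1, 2 or 4 of the lower doses. Without the arrays that stood apart, 2 of which are in H at 30 µg/mL, HAMP rose by 0.46 (adjusted p = 0.0118) and TFR2 differed by 0.30 (adjusted p = 0.0565), while TFRC rose by 0.56 (adjusted p = 0.0415).

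**Figure D4:**
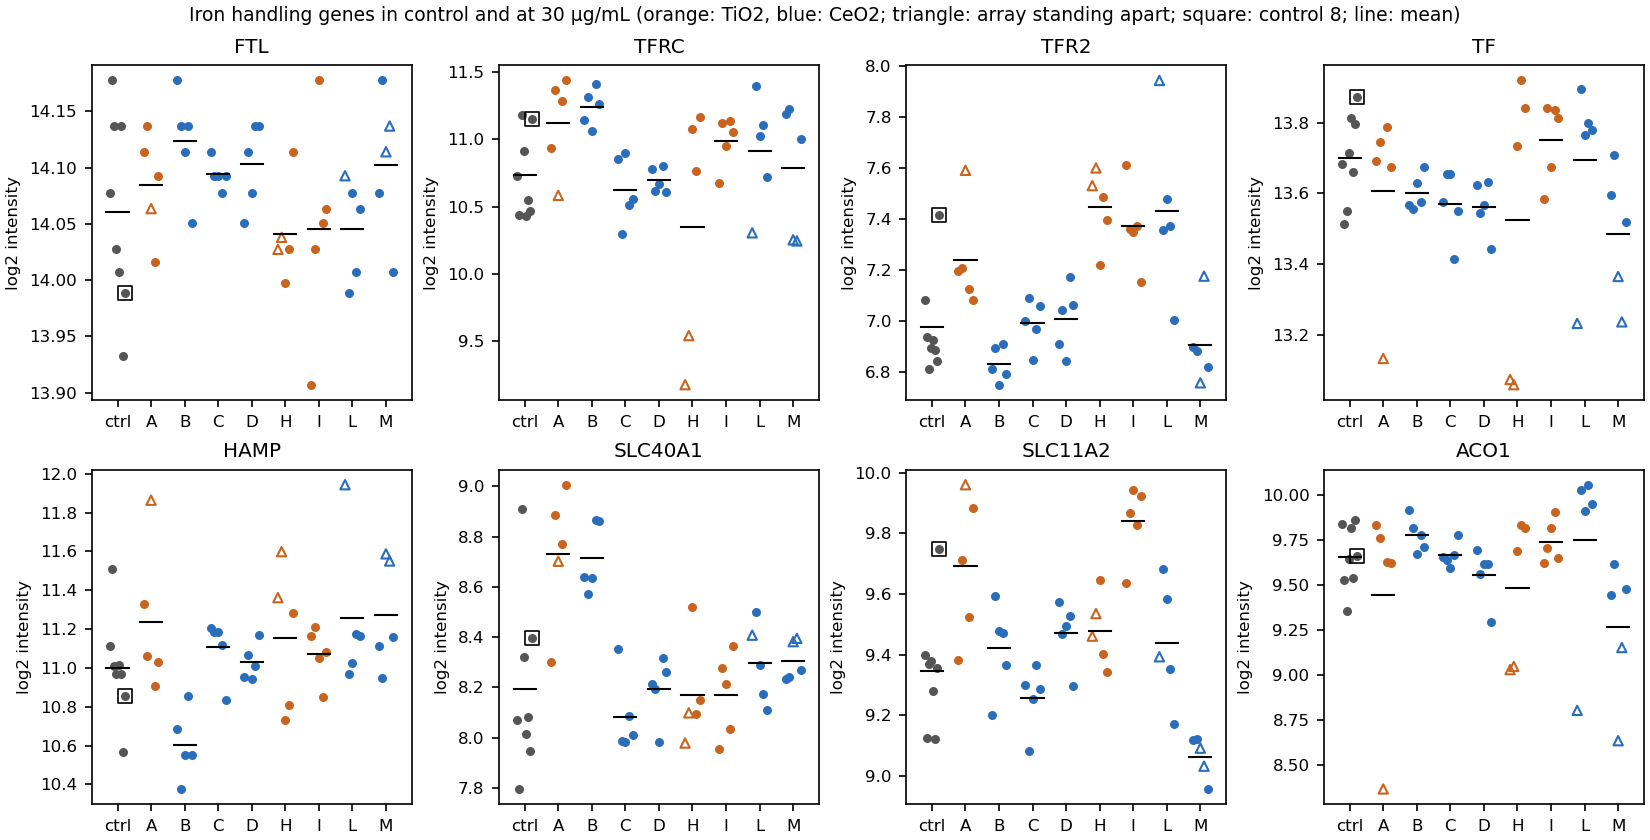
Log2 intensity (vertical axis, a scale of its own in each panel) of the 8 measured members in every control array and every array at 30 µg/mL, by material (horizontal axis). Orange points are TiO2 and blue points CeO2, triangles are arrays that stood apart, the square marks control 8 and lines are means. Among the materials the mean of M is lowest for SLC11A2, and the means of A and B are highest for SLC40A1.

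The 8 materials at 30 µg/mL were also compared with each other in an F test that uses no control. SLC11A2 (F = 12.8, adjusted p = 1.65e-09), TFR2 (F = 10.5, adjusted p = 4e-08), SLC40A1 (F = 6.34, adjusted p = 4.04e-05), HAMP (F = 4.93, adjusted p = 0.000531) and TFRC (F = 3.12, adjusted p = 0.0171) differed among materials. That is 5 of 8 members, and 37.6% of all genes passed. ACO1, TF and FTL did not pass (adjusted p = 0.0712, 0.261 and 0.718). On the 110 other arrays 7 of 8 passed, all but FTL, against 39.8% of all genes.

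The order of the means showed which materials were high for which gene. SLC11A2 was lowest with M (9.06 ± 0.07, SD, 5 arrays), then C (9.26 ± 0.11), and highest with A (9.69 ± 0.24) and I (9.84 ± 0.12). TFR2 was lowest with B (6.83 ± 0.07) and M (6.91 ± 0.16) and highest with L (7.43 ± 0.34) and H (7.45 ± 0.15). HAMP was lowest with B (10.60 ± 0.18), and the other 7 means lay between 11.03 and 11.27. Of the 7 steps between neighbouring materials in each gene, the arrays on both sides overlapped in all but 2. These were the step of 0.42 in HAMP from B to D and the step of 0.41 in SLC40A1 from M to B. How often such steps occur over all genes is not given here, so they are a description.

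No member passed between the labelled oxides. With the material as the unit, 3 TiO2 against 5 CeO2 means at 30 µg/mL, no member passed limma's test, nor did any of the 20046 genes, a background of 0%. At an unadjusted p under 0.05 there were 1371 genes, 6.84% of all, and 2 of the 8 members. These were TFR2, with means of 7.35 for TiO2 and 7.03 for CeO2, and SLC11A2, with means of 9.67 and 9.33. Their differences, CeO2 minus TiO2, were -0.32 ± 0.13 and -0.34 ± 0.12 (adjusted p = 0.721 and 0.697). L, a CeO2 material, had TFR2 among the highest and M, another, had SLC11A2 lowest.

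The patterns of the 5 members that differed among materials were set against those of 12764 other genes above the median level, over the 25 group means. The closest to TFR2 were FREM1 (Pearson r = 0.96), CFB (0.95) and GRB7 (0.95). For SLC11A2 they were UTP25 (0.92), RBM12 (0.91) and RCOR3 (0.91), and for SLC40A1 they were POLR3G (0.89), LRRC8B (0.88) and NBN (0.87). HAMP and TFRC had less close partners, MCM5 (0.83), UBTD1 (0.83) and CLPP (0.81) for HAMP, and LRRC8B (0.85), XPO1 (0.85) and LIN28B (0.84) for TFRC. Some of the partners depended on the 9 arrays and others did not. Without these arrays the r of MCM5 with HAMP was 0.72, and the closest partner of TFR2 was LAMB2 (0.96). FREM1 kept an r of 0.95 with TFR2, and POLR3G was still the closest to SLC40A1 (0.91). Group means of all genes come from the same arrays, so these are descriptions.

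Other genes of iron and heme metabolism were read at 30 µg/mL in 4 lists of 73 genes, of which 67 were measured. Of 536 tests 28 were higher and 19 lower, 8.77% against 5.87% of all gene tests. With all arrays C and D had no call in any of the 4 lists, and only 0.0649% and 0.015% of all genes passed with them. With the 9 arrays that stood apart left out, D had 1 call, a heme gene that was lower.

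Among genes that control hepcidin, 13 calls were higher and 1 lower in 120 tests of 15 genes, 11.7% against 5.87% of all gene tests. FURIN, a protease that processes hepcidin and hemojuvelin, rose in 5 materials, A (0.67 ± 0.12, adjusted p = 4.68e-05), H (0.64), L (0.61), I (0.39) and M (0.39). ID1, a target of BMP signalling, rose with M (0.72 ± 0.14, adjusted p = 4.91e-05), L (0.67) and H (0.55). TMPRSS6, the protease that dampens BMP signalling to HAMP, rose with L (0.38 ± 0.07, adjusted p = 0.000191) and A (0.22), and SMAD7, an inhibitor in that pathway, with H and L (0.21 in both). With M, BMPR2, a BMP receptor, rose by 0.31 and SMAD4, the shared SMAD, fell (-0.32, adjusted p = 0.0495). Of these 5 materials, A, H, L and M hold arrays at 30 µg/mL that stood apart, and with the 9 left out the list had 9 higher and 2 lower. The calls of FURIN in M (0.20, adjusted p = 0.427), ID1 in H, SMAD7 in H and L, TMPRSS6 in A and SMAD4 in M were lost, and the rises of ID1 in M (0.46) and TMPRSS6 in L (0.24) were smaller but passed. The median change of the list lay between -0.06 and 0.08 in the 8 materials, against medians of all genes within 0.01 of 0.

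Genes of iron uptake, transport and release had 6 calls higher and 4 lower among 144 tests of 18 genes, 6.94%, a share near the 5.87% of all gene tests. SLC39A14, which encodes ZIP14, the hepatocyte carrier of iron not bound to transferrin, rose with L by 0.85 ± 0.15 (1.80-fold, adjusted p = 8.65e-05) and with H by 0.71 ± 0.15 (1.63-fold, adjusted p = 0.000823). All 5 arrays of both groups lay above the control mean, and without the 9 arrays the rises were 0.61 and 0.55 and still passed. STEAP1, of a family of metalloreductases, rose with B (0.50 ± 0.10, adjusted p = 0.0115) and fell with I (-0.44, adjusted p = 0.00452) and L (-0.32, adjusted p = 0.0362). STEAP3, the endosomal ferrireductase, rose with A (0.32), and CP, the ferroxidase ceruloplasmin, fell with A (-0.26, adjusted p = 0.00925). EPAS1, which encodes HIF-2 alpha, fell with I (-0.26) and rose with M (0.24), and CDC42BPA, which encodes a kinase, rose with M (0.19, adjusted p = 0.0271). With the 9 arrays left out, STEAP3 in A (0.19, adjusted p = 0.0723), CP in A (-0.21, adjusted p = 0.0538) and CDC42BPA in M (0.03, adjusted p = 0.869) did not pass.

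Genes of mitochondrial iron and iron-sulfur clusters had 5 calls higher and 9 lower among 128 tests of 16 genes, 10.9% against 5.87% of all gene tests. NFS1, the cysteine desulfurase that supplies sulfur for the clusters, fell in 4 materials, L (-0.30 ± 0.07, adjusted p = 0.00178), I (-0.29), H (-0.24) and A (-0.24). With M other genes fell, among them CISD1, an outer membrane iron-sulfur protein (-1.08 ± 0.25, adjusted p = 0.00096), HSCB, a chaperone of cluster transfer (-0.62), LYRM4, the partner of NFS1 (-0.39), and ISCA2, an assembly factor (-0.31). With the 9 arrays left out, the changes of CISD1 (-0.40) and HSCB (-0.41) were smaller but passed, and that of ISCA2 did not pass (-0.16, adjusted p = 0.0899). NFU1, a cluster carrier, rose with B (0.41 ± 0.09, adjusted p = 0.0156), and CISD2, an iron-sulfur protein related to CISD1, rose with I (0.20, adjusted p = 0.0397). SLC25A37, which encodes the mitochondrial iron importer mitoferrin 1, rose with A and H (0.25 in both), and on the 110 other arrays these differences were 0.14 (adjusted p = 0.248) and 0.11 (adjusted p = 0.521).

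Genes of heme synthesis, transport and breakdown had 4 calls higher and 5 lower among 144 tests of 18 genes, 6.25%, a share near the 5.87% of all gene tests. Of these 9 calls 5 were with M, where 17.4% of all genes passed. HP, which encodes the hemoglobin scavenger haptoglobin, fell with M (-1.40 ± 0.15, 2.64-fold lower, adjusted p = 6.01e-12), from a mean of 11.53 in control to 10.13, and the change was -1.08 with the 9 arrays left out. TMEM14C, a porphyrinogen carrier of mitochondria (-0.71), and CPOX, an enzyme of heme synthesis (-0.54), fell with M too. SLC48A1, the heme transporter HRG1, rose by 0.47 with M (adjusted p = 3.63e-06) and by 0.24 with L. HMOX1, the inducible heme oxygenase, was named after its values were seen: it rose with M (0.38, adjusted p = 0.015), passed with no other material, and was 0.09 (adjusted p = 0.699) with the 9 arrays left out. HMOX2, the constitutive heme oxygenase, rose with A (0.21), and UROD and BLVRA, enzymes of heme synthesis and of biliverdin reduction, fell with H (-0.40 and -0.58). On the 110 other arrays the changes of UROD and BLVRA in H were -0.17 and -0.23 and did not pass, nor did those of CPOX in M (-0.26, adjusted p = 0.0712) and SLC48A1 in L (0.17, adjusted p = 0.167).

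**Figure D5:**
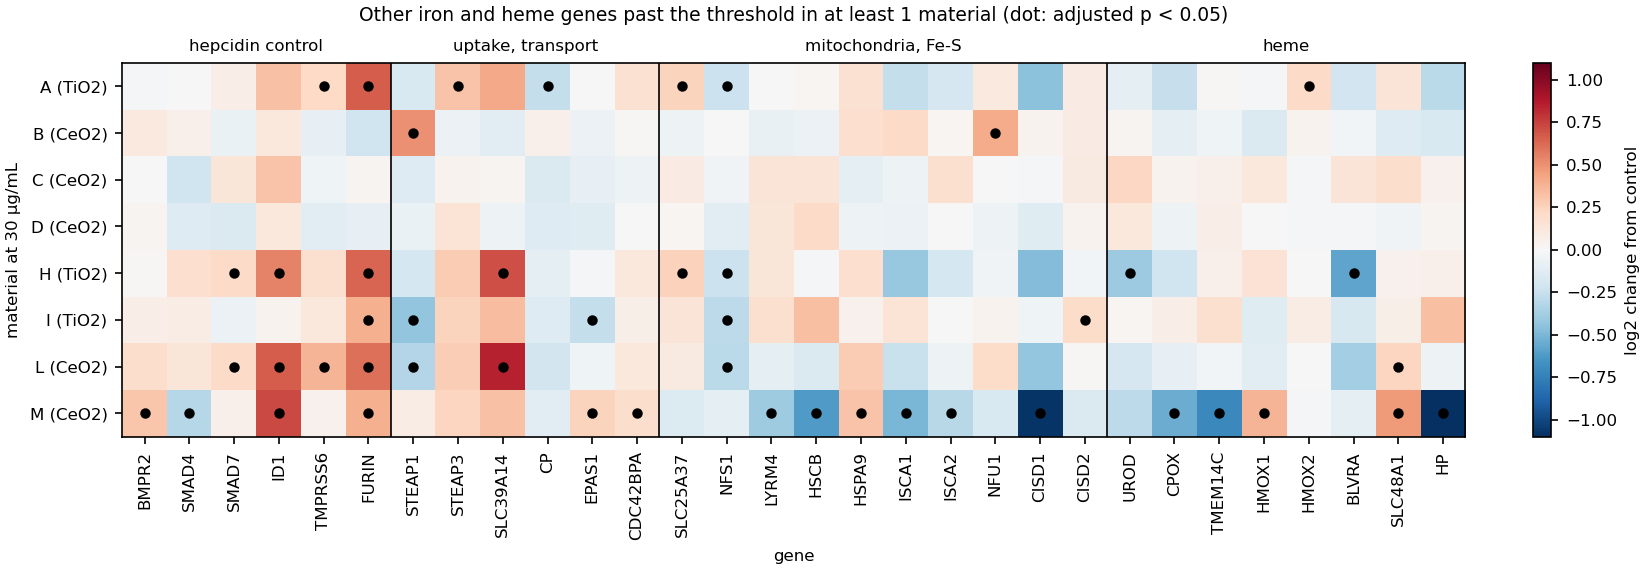
Log2 change from control at 30 µg/mL (colour) of the 30 genes of the 4 lists that passed in at least 1 of 8 materials (rows), by list (columns in blocks). Dots mark adjusted p under 0.05. FURIN is marked in 5 materials and NFS1 in 4, and HP with M has the largest change, -1.40.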

How the data were processed

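Each array has a column of deposited intensity, linear in scale, with a value per probe. Per the series text, the authors used R 2.14.0 and beadarray 2.4.1, and the sources used here do not name their correction for background or their scaling. Every array has a median of 98.4 and the same highest value, so each change is read against the rest of its array, and a shift of all RNA cannot be seen. The log2 of these values was analysed for 119 of 120 arrays; 1 array of M, whose title and characteristic give different doses, was left out. Probes were named from the platform annotation (30113 of 48107 with 1 symbol, 8 with several, 17986 with none) and the brightest probe of each of 20046 genes was kept. Groups were compared with limma 3.58.1 in R 4.3.3 (1 fit over 25 groups, Benjamini-Hochberg over all genes in each comparison, threshold 0.05), and oxides on 8 material means. In simulated data for A at 30 µg/mL over 20046 genes, 90 of 100 genes changed by 0.5 and 100 of 100 changed by 1 were called, with 6 false calls. Noise was drawn there for each gene on its own, with no deviation shared between genes and no array that stands apart. The figures therefore check the steps of the test and do not give its power or false calls in the real arrays.

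The members, lists and arrays that stand apart were chosen with earlier results of these data known. The text names all 10 members, up to 4 passing genes of smallest adjusted p for each other list and material, and the 3 genes most like a member's pattern; other genes are marked as chosen after their values were seen. Promoter windows, 250 bases before to 50 after each start, are from RefSeq (GRCh38.p14); in positions the start is base 1. Alternatives were another choice of probes, a filter on dim genes, quantile normalization, limma's trend and robust prior, separate fits, a replicate block, a stricter threshold, and leaving out each array or the 9 that stand apart. The deviations of same-numbered arrays had a median correlation of 0.01 over 1320 pairs, with single pairs from -0.82 to 0.88. For arrays of other numbers the median was 0.0014. A median over all pairs cannot show whether the numbers pair some of the arrays. Python 3.11.15 with matplotlib 3.10.9, numpy 2.4.6 and pandas 2.3.3 drew the plots and read the windows, and the R package data.table was at version 1.17.8.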

Additional observations from a re-analysis of the deposited data

Results flagged for a closer look

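In 200 combinations of a member and a group of 4 to 8 arrays, the highest or lowest array was set against the rest by Dixon's criterion, and 23 arrays lay beyond it; chance flags about 1 in 20 groups. Of the 23, 10 were arrays that stood apart in all genes. These read low for ACO1, with L at 30 µg/mL (8.80), I at 3 µg/mL (8.59), A at 30 µg/mL (8.37) and I at 0.3 µg/mL (8.88). They read low for TF, with L at 30 µg/mL (13.23), A at 30 µg/mL (13.13) and I at 0.3 µg/mL (13.41), and for TFRC with I at 3 µg/mL (9.76). They read high for TFR2 with A at 30 µg/mL (7.59) and for HAMP with L at 30 µg/mL (11.94).

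Control 8 was flagged for TFR2 (7.42) and SLC11A2 (9.75), high in both. The other 11 flags were spread over genes and groups. FTL was low in L at 3 µg/mL replicate 5 (13.83), H at 3 µg/mL replicate 1 (13.88) and B at 0.3 µg/mL replicate 3 (14.11). In the last of these the other 3 arrays all read 14.18, the highest value any array holds, so their lack of spread is set by the scale. TFRC was high in A at 3 µg/mL replicate 4 (11.31) and D at 3 µg/mL replicate 1 (10.84) and low in M at 0.3 µg/mL replicate 2 (10.24). TF was high in D at 0.3 µg/mL replicate 1 (13.64). HAMP was high in B at 3 µg/mL replicate 1 (11.01) and low in C at 30 µg/mL replicate 5 (10.83). SLC40A1 was high in C at 30 µg/mL replicate 1 (8.35), and ACO1 was low in A at 3 µg/mL replicate 5 (9.67). What made these arrays differ was not tested.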

How the results depend on the processing

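With all arrays the member calls were 8 at 30 µg/mL, 7 at 3 µg/mL, 3 at 0.3 µg/mL and 2 between 30 and 0.3 µg/mL, 5 in the F test among materials, 0 between oxides, and 47 in the other lists. With a threshold of 0.01 they were 2 at 3 µg/mL, 1 between doses and 24 in the other lists. Without the 9 arrays that stand apart they were 12 at 3 µg/mL and 9 at 0.3 µg/mL, where 4.94% and 2.95% of all gene tests passed. In separate fits of the groups compared, which hold fewer arrays, they were 3 at 30 µg/mL, 2 at 3 µg/mL and 19 in the other lists. The counts at 0.01, in separate fits and, below, with arrays left out singly or by replicate number stand without the share of all genes. They do not show whether members lost more calls than other genes did. Leaving out 1 control or 1 array at 30 µg/mL, or a replicate number of all groups at 0.3 and 3 µg/mL together, gave 7 to 11, 2 to 7, 3 to 4, 1 to 3, 4 to 7, 0 to 0 and 37 to 56 calls in the order above, and with 1 array alone left out the range at 3 µg/mL was 4 to 7. At 3 µg/mL the 2 to 4 calls came without control 6 or without replicate 1, 2, 3 or 4 of the groups at 0.3 and 3 µg/mL, and between doses the 1 call came without H at 30 µg/mL replicate 1 or 2 or without replicate 1, 2 or 4 of those groups. No change of a called member reversed its sign under any alternative. Of the 18 member calls against control, 10 were lost in separate fits and 7 at a threshold of 0.01. Leaving out the 9 arrays lost 1, and testing every probe on its own lost 1. The other choices of probes, the dim filter and the trended prior lost none. Quantile normalization lost none either, but it left the values almost as deposited and so is no separate check. With it TFR2 with I at 0.3 µg/mL rose by 0.624495, against 0.624496 in the main fit. With the replicate number as a replicate block, there were 6 calls at 30 µg/mL and 6 at 3 µg/mL, and SLC11A2 with M at 3 and 30 µg/mL and SLC40A1 with B at 30 µg/mL no longer passed (adjusted p = 0.114, 0.0577 and 0.128). Whether the numbers pair any of the arrays is not known here. The oxide comparison was not run with the block or with separate fits. Detection against background was not used, so how many arrays hold TFR2 above background is unknown here.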

Other observations

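The array of M that entered no group, because its title gives the low dose and its characteristic 3 µg/mL, read HAMP at 11.85. That is above the 4 arrays of M at 0.3 µg/mL (10.74 to 11.16) and the 4 of M at 3 µg/mL (10.96 to 11.36). It read TF at 13.45 and ACO1 at 9.33, below both groups, whose lowest arrays were 13.59 and 13.49 for TF and 9.40 and 9.56 for ACO1. TFRC (11.03), TFR2 (6.96), SLC40A1 (8.14), SLC11A2 (9.20) and FTL (14.05) lay within the span of the 2 groups together.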
